A study of Mus musculus with 12 samples.

Results

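The transcripts described here are those of 10 genes named for their place in the protein-folding machinery of the endoplasmic reticulum (ER): Xbp1, Hspa5, Hsp90b1, Dnajb9, Herpud1, Sdf2l1, Pdia4, Calr, Creld2 and Manf. They were taken by name from the 36528 gene IDs of the count table, and all 10 were among the 16032 genes that passed the filter on low counts. Whole liver RNA was counted in 6 mice given carbon tetrachloride (CCl4) and 6 mice given corn oil, each injected into the peritoneum on 3 occasions a week over 6 weeks. CCl4 is converted by hepatocyte enzymes into a reactive radical, and repeated dosing leads to injury and fibrosis of the liver. Oil is the carrier that the control mice received alone. The sources used here do not give strain, sex, age, dose or the interval between the last injection and harvest. Libraries held 43027778 to 70375852 counts.

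The ER is where secreted and membrane proteins are folded, and the liver, which makes most plasma proteins, carries a heavy load of them. When unfolded proteins build up, the sensor IRE1 (gene Ern1) cuts the Xbp1 transcript so that it encodes an active transcription factor, ATF6 is cleaved into another, and PERK (gene Eif2ak3) slows translation and raises ATF4 and CHOP. XBP1 and ATF6 switch on chaperones, disulfide isomerases and the machinery that sends misfolded proteins out of the ER for degradation (ERAD). Counts per gene do not show whether Xbp1 was spliced.

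Promoter sequences show where these genes carry the known ER stress elements, and they are given here as a description. The part of the elements in the counts below was not tested. Windows of 300 bases, 250 before and 50 from the start site, came from RefSeq for GRCm38.p6 and were held for 9 of the 10 genes; Manf had none. The ER stress response element (ERSE) was searched as CCAAT, 9 bases of any kind, then CCACG. ERSE-II was searched as ATTGG, 1 base of any kind, then CCACG. The unfolded protein response element (UPRE) was searched as TGACGTGG. All were searched on both strands. Each sequence below reads 5′ to 3′ along the strand of its gene, with the element in capitals and 20 bases on each side.
Hspa5, chr2:34772005-34772063, + strand, ERSE: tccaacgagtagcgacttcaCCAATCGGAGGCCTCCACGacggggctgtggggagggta
Hsp90b1, chr10:86705618-86705676, - strand, ERSE: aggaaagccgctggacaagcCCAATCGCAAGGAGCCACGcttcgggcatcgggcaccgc
Hsp90b1, chr10:86705513-86705571, - strand, ERSE in the reverse sense: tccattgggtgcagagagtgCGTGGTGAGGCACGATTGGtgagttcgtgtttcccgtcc
Calr, chr8:84847055-84847113, - strand, ERSE in the reverse sense: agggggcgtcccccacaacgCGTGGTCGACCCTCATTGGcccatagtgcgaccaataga
Creld2, chr15:88819500-88819558, + strand, ERSE in the reverse sense: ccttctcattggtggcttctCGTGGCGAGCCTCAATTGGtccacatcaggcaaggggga
Herpud1, chr8:94386357-94386407, + strand, ERSE-II: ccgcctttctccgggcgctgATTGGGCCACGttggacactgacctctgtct

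An ERSE was thus found in 4 of the 9 windows, against 0.119% of the 32851 windows of the same length in the table. ERSE-II was found in 1 of 9, the window of Herpud1, against 0.0365% of all windows. UPRE was found in 0 of 9, against 0.676% of all windows. Xbp1, Dnajb9, Sdf2l1 and Pdia4 held none of these letter strings in this window. The Hspa5 element lay 65 to 47 bases before the start site and that of Herpud1 52 to 42 bases before it. The genes were chosen by name for their place in ER protein folding, and the strings searched are known ER stress elements. The choice of genes and of elements was thus not independent. The shares set against all windows therefore cannot serve as a test of enrichment, and no conclusion is drawn from them. A match of letters is a description and does not show that a factor bound there.

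Of the 10 genes, 1 was called lower in CCl4 livers, Herpud1, and 0 were called higher (edgeR quasi-likelihood test, Benjamini-Hochberg adjusted p under 0.05 over all 16032 genes). Over all genes tested, 20.6% were called higher, 18.4% lower and 39.0% in either direction. At an unadjusted p under 0.05, 2 of the 10 were higher, Hsp90b1 and Manf, against 24.8% of all genes. DESeq2 called 0 of the 10 higher, against 22.1% of all genes higher and 23.1% lower. Limma-voom called 3 higher, Sdf2l1, Creld2 and Manf, where 27.4% of all genes were higher and 27.1% lower, and upper-quartile scaling gave 2, Hsp90b1 and Manf, where 26% were higher and 12.6% lower; these shares of the 10 were near those of all genes. The log2 fold change of CCl4 over oil was positive for 8 of the 10 genes, with a median of 0.19 over the 10, against 50.8% positive and a median of 0.01 over all genes. In none of the 10 did the 6 CCl4 livers and the 6 oil livers fall into ranges that did not overlap, a separation seen in 20% of all genes. Each liver came from a separate mouse, so the spread is that between animals. In RNA of a whole organ, fewer cells of a type and less RNA per cell cannot be told apart.

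**Figure D1:**
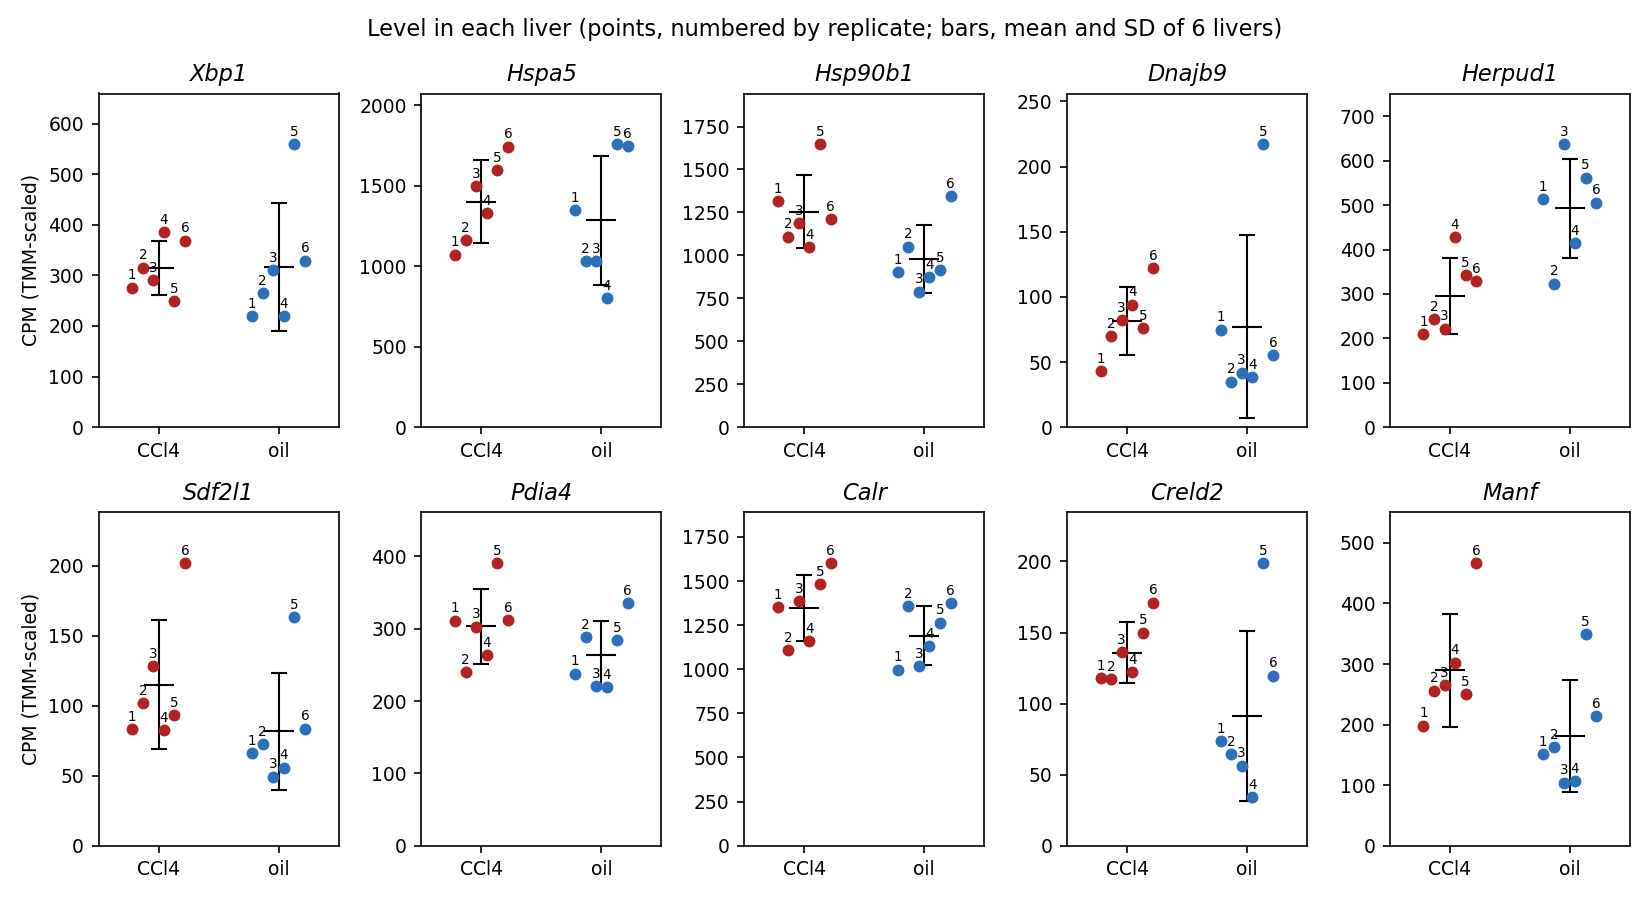
Expression of each of the 10 genes in CPM (counts per 1000000 of the TMM-adjusted library size), with 1 numbered point per liver, CCl4 left of oil, the group mean as a line and the SD as a bar. Herpud1 lies lower in CCl4 livers, at 209 to 428 CPM against 323 to 637 CPM in oil livers, while oil liver 5 stands above the other oil livers for Xbp1, Dnajb9, Sdf2l1, Creld2 and Manf.

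Herpud1 (gene ID 64209, chr8:94386429-94395371, + strand) encodes an ER membrane protein that helps assemble the complex around the HRD1 ubiquitin ligase for ERAD. Its lowest, median and highest values were 209, 286 and 428 CPM in CCl4 livers, against 323, 510 and 637 CPM in oil livers. The ranges overlapped: CCl4 livers 4, 5 and 6 lay above the lowest oil liver, while CCl4 livers 1, 2 and 3 lay below every oil liver. Means were 295 ± 85.2 CPM in CCl4 livers and 493 ± 111 CPM in oil livers (SD, n = 6 each), with a log2 fold change of -0.74 (SE 0.20, 95% interval -1.17 to -0.30, edgeR adjusted p = 0.0110), or 1.67-fold lower. Herpud1 was called lower in each of the 22 alternative settings, with log2 fold changes of -0.88 to -0.62 and adjusted p of 0.00199 to 0.0288.

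Set against Hspa5 within each library, Herpud1 gave 0.148 to 0.321 counts per Hspa5 count in CCl4 livers, against 0.290 to 0.618 in oil livers. CCl4 liver 4, at 0.321, was the only CCl4 liver above the lowest oil liver by this ratio. A ratio within a library does not depend on how libraries are scaled, and shows only that the paired transcripts changed unequally.

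Xbp1 (gene ID 22433, chr11:5520641-5525993, + strand), the transcription factor of the IRE1 arm, had a lowest, median and highest value of 249, 303 and 385 CPM in CCl4 livers, against 219, 288 and 559 CPM in oil livers. Every CCl4 liver lay inside the oil range, and oil liver 5 alone held the value of 559 CPM, 2.08 times the mean of the other oil livers. Means were 314 ± 53.5 CPM in CCl4 livers and 317 ± 127 CPM in oil livers (SD, n = 6 each). The log2 fold change was -0.01 (SE 0.22, 95% interval -0.48 to 0.45, edgeR adjusted p = 0.963). Its sign turned without oil liver 5, at 0.22 (SE 0.16, adjusted p = 0.265), and no setting called it.

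Hspa5 (gene ID 14828, chr2:34772090-34776529, + strand) encodes BiP, the HSP70 chaperone of the ER lumen, which binds unfolded chains and holds the stress sensors inactive. It had a lowest, median and highest value of 1070.2, 1413 and 1742 CPM in CCl4 livers, against 802, 1190 and 1756 CPM in oil livers. Every CCl4 liver lay inside the oil range, whose top was shared by oil livers 5 and 6. Means were 1400 ± 259 CPM in CCl4 livers and 1286 ± 400 CPM in oil livers (SD, n = 6 each), and the log2 fold change was 0.12 (SE 0.20, 95% interval -0.31 to 0.55, edgeR adjusted p = 0.650). No setting called it, and leaving out single livers gave 0.01 (without oil liver 4) to 0.23 (without oil liver 5). The span of Hspa5 overlaps Rabepk, and since the sources used here do not say whether counting used strand, reads of the overlap cannot be told apart.

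Hsp90b1 (gene ID 22027, chr10:86690841-86705444, - strand) encodes GRP94, the HSP90 of the ER. Its lowest, median and highest values were 1049, 1199 and 1646 CPM in CCl4 livers, against 788, 908 and 1344 CPM in oil livers. Oil liver 6 was the only oil liver above 1051 CPM, and CCl4 liver 5 the only CCl4 liver above it. Means were 1253 ± 213 CPM in CCl4 livers and 979 ± 198 CPM in oil livers (SD, n = 6 each), with a log2 fold change of 0.36 (SE 0.15, 95% interval 0.03 to 0.68, unadjusted p = 0.0349, edgeR adjusted p = 0.0779). The call depended on setting: it was made without oil liver 6 (log2 fold change 0.46, adjusted p = 0.0228), under upper-quartile normalisation (0.48, adjusted p = 0.0220) and with the length covariate described below (0.50, adjusted p = 0.00965).

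Calr (gene ID 12317, chr8:84842088-84846931, - strand) encodes calreticulin, a calcium-binding chaperone for glycoproteins. It ran from 1107 to 1603 CPM around a median of 1368 CPM in CCl4 livers, against 998 to 1375 CPM around 1198 CPM in oil livers. The groups overlapped, with CCl4 livers 3, 5 and 6 above every oil liver. The log2 fold change was 0.18 (SE 0.13, 95% interval -0.10 to 0.46, edgeR adjusted p = 0.294), and 0.10 without oil liver 1; no setting called it.

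Pdia4 (gene ID 12304, chr6:47796141-47813512, - strand), a protein disulfide isomerase of the ER, also overlapped between groups. It ran from 239.8 to 391 CPM around a median of 307 CPM in CCl4 livers, against 219 to 335 CPM around 261 CPM in oil livers. Its log2 fold change was 0.20 (SE 0.15, 95% interval -0.12 to 0.51, edgeR adjusted p = 0.296) and no setting called it. CCl4 liver 5 was the highest CCl4 liver for both Pdia4 and Hsp90b1; without it their log2 fold changes were 0.09 and 0.24. Pancreatic acinar marker transcripts, from a gland whose cells are rich in ER, summed to 395 CPM in that liver, the top of a range of 11.6 to 395 CPM in CCl4 livers and 16.4 to 62.3 CPM in oil livers; their part in the result was not tested. The span of Pdia4 holds the microRNA gene Mir704.

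Dnajb9 (gene ID 27362, chr12:44205897-44210068, - strand) encodes ERdj4, a J-domain partner of BiP that also acts on IRE1. It ran from 43.2 to 122 CPM around a median of 79.0 CPM in CCl4 livers, against 35.0 to 217 CPM around 48.4 CPM in oil livers. Oil liver 5, at 217 CPM, stood above every other liver and was 4.42 times the mean of the other oil livers, the largest such ratio among the 10 genes. With all livers the log2 fold change was 0.08 (SE 0.42, 95% interval -0.82 to 0.97, edgeR adjusted p = 0.894). Without oil liver 5 it was 0.72 (SE 0.25, adjusted p = 0.0332), or 1.65-fold higher, and with the length covariate described below it was -0.29 (adjusted p = 0.584). Without CCl4 liver 6 it was -0.07 (adjusted p = 0.914), and its sign also turned without oil liver 2, 3, 4 or 6.

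Sdf2l1 (gene ID 64136, chr16:17130138-17132383, - strand) encodes a soluble ER protein that works with J-domain co-chaperones of BiP to keep chains from aggregating. It ran from 82.4 to 202 CPM around a median of 97.9 CPM in CCl4 livers, against 49.4 to 163 CPM around 69.3 CPM in oil livers. The overlap came from oil liver 5, at 163 CPM, and oil liver 6, at 83.5 CPM; the other oil livers lay below every CCl4 liver. With all livers the log2 fold change was 0.49 (SE 0.30, 95% interval -0.14 to 1.13, edgeR adjusted p = 0.198). Without oil liver 5 it was 0.81 (SE 0.24, adjusted p = 0.0145), and without CCl4 liver 6, the highest liver at 202 CPM, it was 0.26 (SE 0.27, adjusted p = 0.480).

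Creld2 (gene ID 76737, chr15:88819646-88826681, + strand) encodes an ER protein with disulfide isomerase activity that can also be secreted. It ran from 117 to 171 CPM around a median of 129 CPM in CCl4 livers, against 34.2 to 199 CPM around 69.0 CPM in oil livers. The CCl4 livers were close together, with a coefficient of variation of 15.7%, against 65.7% in oil livers, where liver 4 was lowest and liver 5 highest. With all livers the log2 fold change was 0.57 (SE 0.33, 95% interval -0.14 to 1.28, edgeR adjusted p = 0.182). Without oil liver 5 it was 0.96 (SE 0.25, adjusted p = 0.00832), and without oil liver 4 it was 0.39 (SE 0.29, adjusted p = 0.308). Creld2 was called in 3 of the 22 alternative settings.

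Manf (gene ID 74840, chr9:106888753-106891938, - strand) encodes a small ER protein that binds BiP and is released under stress. It ran from 198 to 467 CPM around a median of 260.4 CPM in CCl4 livers, against 104 to 349 CPM around 157 CPM in oil livers. Of the CCl4 livers, 5 lay above every oil liver other than oil liver 5. With all livers the log2 fold change was 0.68 (SE 0.29, 95% interval 0.05 to 1.30, unadjusted p = 0.0352, edgeR adjusted p = 0.0784). It was called in 5 of the 22 alternative settings. Among them were the fits without CCl4 liver 1 (log2 fold change 0.76, adjusted p = 0.0485), under upper-quartile normalisation (0.81, adjusted p = 0.0354) and without oil liver 5 (0.97, adjusted p = 0.00585). Without CCl4 liver 6, the highest liver at 467 CPM, the log2 fold change was 0.49 (SE 0.28, adjusted p = 0.187).

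**Figure D2:**
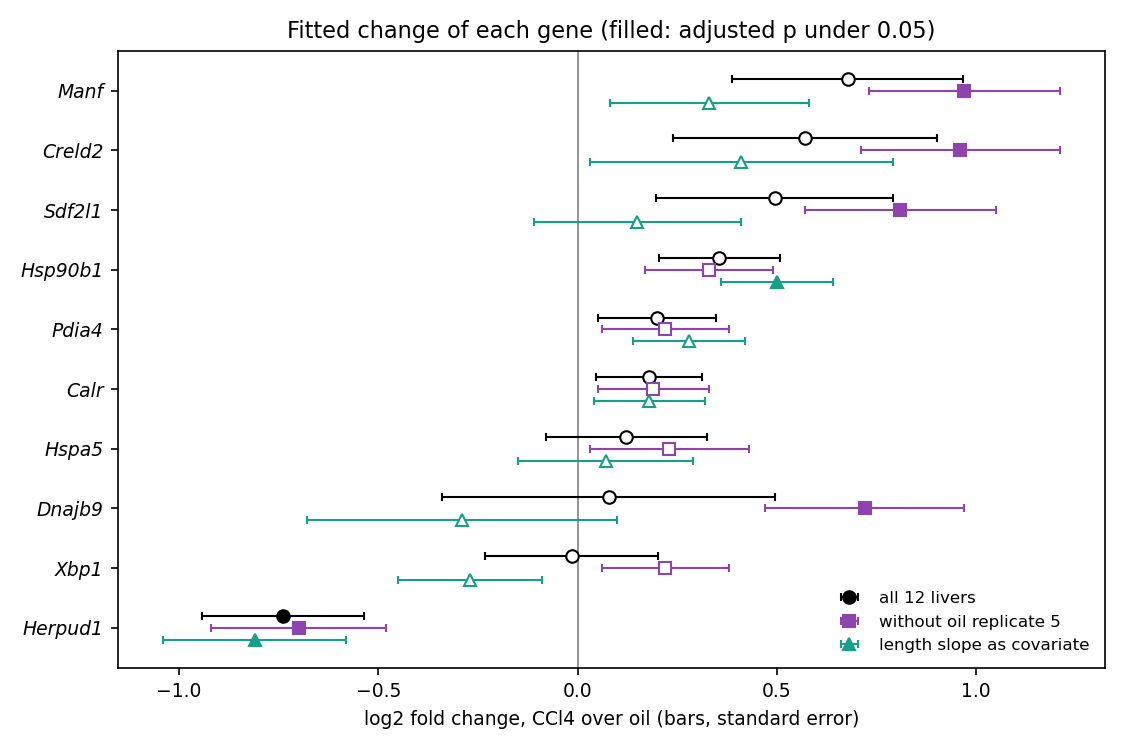
Log2 fold change of CCl4 over oil with its standard error for each gene, with all 12 livers, without oil liver 5, and with a length slope covariate, filled where the adjusted p was under 0.05. Herpud1 lies below 0 in all 3 fits, while Dnajb9 lies at 0.72 without oil liver 5 and at -0.29 with the covariate.

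The number of genes called depended on a single oil liver. Without oil liver 5, edgeR called 4 of the 10 higher, Dnajb9, Sdf2l1, Creld2 and Manf, and Herpud1 lower; over all genes 25.0% were then higher, 21.2% lower and 46.2% in either direction. Oil liver 5 was the highest oil liver in 6 of the 10 genes, against 33.6% of all genes tested, and its mean deviation from the oil mean was 0.72 on the log2 scale. It was not high throughout: its ratio to the mean of the other oil livers was 0.923 for Hsp90b1, 1.08 for Calr, 1.09 for Pdia4 and 1.17 for Herpud1. At the other end, oil liver 4 had the lowest mean deviation of the oil livers over the 10 genes, at -0.47. Among CCl4 livers, liver 6 was highest in 6 of the 10 genes, against 29.3% of all genes, with a mean deviation of 0.37. Both CCl4 liver 6 and oil liver 5 also held the highest summed level of 5 red blood cell markers in their groups, at 1266 CPM against 198 to 853 CPM in the other CCl4 livers, and at 530 CPM against 229 to 369 CPM in the other oil livers. In oil liver 5, Hba-a1, Hba-a2, Hbb-bs and Hbb-bt stood at the top of their oil ranges, Hbb-bs at 307 CPM. Alas2 stood at the bottom there, at 120.4 CPM in an oil range of 120.4 to 181 CPM. Of these 5 markers, 2 were called higher and 1, Alas2, lower in CCl4 livers (against 20.6% and 18.4% of all genes). None of the markers was at 0 throughout. Their part in the values was not tested.

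Libraries also differed in how counts were spread over long and short transcripts. The slope of a library's log2 CPM, less each gene's mean, on log2 transcript length ran from -0.38 to 0.16 in CCl4 livers and from -0.15 to 0.25 in oil livers; a negative slope means relatively more counts from short transcripts. The mean slope was -0.094 in CCl4 livers and 0.094 in oil livers. The slope comes from the same counts and differs by group, so a fit with it as covariate cannot fully separate length from treatment. CCl4 liver 6 and oil liver 5 held the lowest slope of their groups. Without both, 3 of the 10 genes were higher (edgeR adjusted p = 0.0140 for Sdf2l1, 0.0138 for Creld2 and 0.00700 for Manf), against 22.7% of all genes higher, 19.7% lower and 42.5% in either direction, and Dnajb9 was not called (log2 fold change 0.58, adjusted p = 0.0630). With the slope as a covariate, Hsp90b1 was the only 1 of the 10 called higher, against 21.6% of all genes higher, 21.9% lower and 43.5% in either direction, and Manf stood at 0.33 (adjusted p = 0.314), Creld2 at 0.41 (adjusted p = 0.413) and Sdf2l1 at 0.15 (adjusted p = 0.676). The part of this slope in the values of oil liver 5 was not tested.

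**Figure D3:**
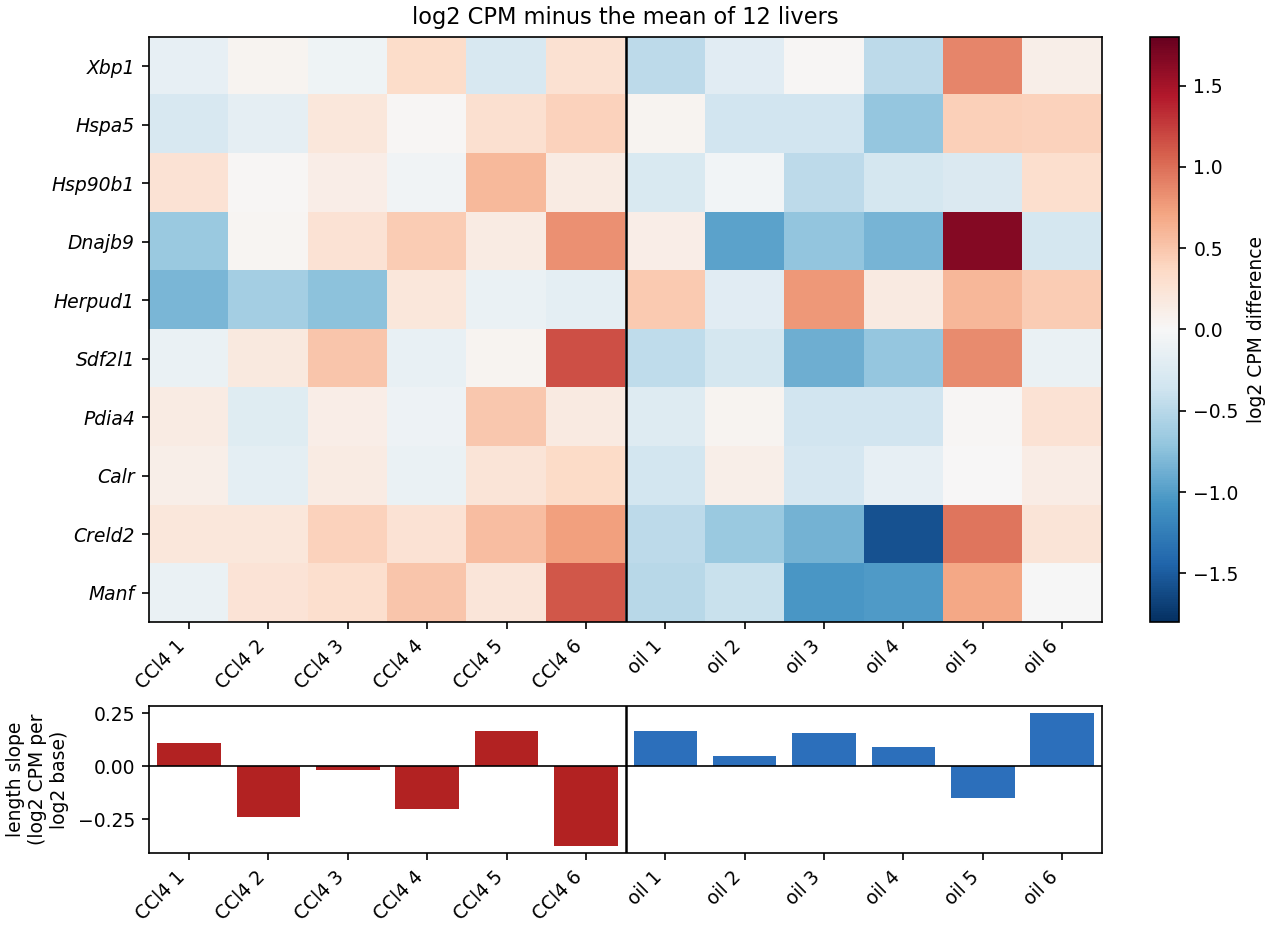
Log2 CPM of each of the 10 genes in each liver less the gene's mean over the 12 livers, as colour, with CCl4 livers left of oil livers, and below it the length slope of each library as bars. Oil liver 5 is red for most genes and oil liver 4 blue for most, and CCl4 liver 6 and oil liver 5 have the lowest slopes of their groups, at -0.38 and -0.15.

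Levels can be set between genes only per length. In RPKM, which divides CPM by transcript length in kilobases, Calr was the most abundant in both groups, at 617 ± 86.2 RPKM in CCl4 livers and 545 ± 76.2 RPKM in oil livers (SD, n = 6 each). Hsp90b1 and Hspa5 followed. Hsp90b1 stood at 389 ± 66.0 RPKM in CCl4 livers and 304 ± 61.5 RPKM in oil livers. Hspa5 stood at 381 ± 70.5 RPKM in CCl4 livers and 350 ± 109 RPKM in oil livers. Of these 2 genes, Hsp90b1 was higher in CCl4 livers and Hspa5 in oil livers, within each other's spread. Herpud1 stood at 151 ± 43.6 RPKM in CCl4 livers, level with Xbp1 at 148 ± 25.1 RPKM, and at 252 ± 56.6 RPKM in oil livers, above Xbp1 at 149 ± 59.6 RPKM. Dnajb9 was least abundant in both groups, at 33.0 ± 10.6 RPKM in CCl4 livers and 31.3 ± 28.4 RPKM in oil livers. Manf, Pdia4, Sdf2l1 and Creld2 lay between, at 99.2 to 129 RPKM in CCl4 livers and 66.8 to 110 RPKM in oil livers, neighbours within each other's spread. With coding length in place of transcript length the order changed below Calr, which remained first in both groups.

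The genes whose log2 CPM, each centred on its own mean over the 12 livers, ran closest to Hspa5 were Uso1 (root mean square difference 0.18), Gfpt1 (0.18), Sec61a1 (0.19), Mpp7 (0.20) and Rint1 (0.20), out of 11428 candidates. Uso1 encodes a tether of vesicles that leave the ER, Gfpt1 the entry enzyme of the hexosamine pathway, and Sec61a1 the pore through which chains enter the ER. Of the other genes described here, Pdia4 was nearest at 0.27, with 70 candidates nearer, and Herpud1 farthest at 0.59, with 7425 nearer. All values share the same libraries and their depth.

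The surrounding pathway was described with 6 further lists, chosen with earlier results of these data known. Of 11 sensors and transducers of the unfolded protein response, 1 was higher and 4 lower in CCl4 livers, with a median log2 fold change of -0.24, against 20.6% higher, 18.4% lower and a median of 0.01 over all genes. Creb3l3, a liver transcription factor that is released from the ER membrane by cleavage, had 177 to 282 CPM in CCl4 livers, against 336 to 369 CPM in oil livers. Those ranges did not overlap, and the log2 fold change was -0.72 (SE 0.12, edgeR adjusted p = 0.000414). Creb3l1, a relative known from collagen-secreting cells, had 2.14 to 6.67 CPM in CCl4 livers and 0.878 to 1.93 CPM in oil livers, with no overlap and a log2 fold change of 1.61 (SE 0.31, adjusted p = 0.00114).

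The 3 stress sensors, named after their values were seen, differed in their calls. Ern1, encoding IRE1, had 2.27 to 18.0 CPM in CCl4 livers and 16.9 to 30.5 CPM in oil livers, overlapping through CCl4 liver 1, with a log2 fold change of -1.15 (SE 0.42, edgeR adjusted p = 0.0425). That call held in 12 of 22 alternative settings, and its adjusted p ran from 0.00285 to 0.0871 over them; with the length covariate the log2 fold change was -0.64 (adjusted p = 0.0331). It was lost without CCl4 liver 2 or 4 and without oil liver 1, 2, 3, 4 or 6, and with upper-quartile scaling, no filter or a filter of 50 counts in 6 libraries, where the adjusted p was at least 0.0505. Atf6 had a log2 fold change of -0.24 (SE 0.15, adjusted p = 0.203) and Eif2ak3 one of -0.11 (SE 0.20, adjusted p = 0.670).

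Of 23 other ER chaperones and folding enzymes, 4 were higher and 2 lower (against 20.6% and 18.4% of all genes). Their median log2 fold change was 0.04. Dnajc10, a disulfide reductase with a J domain, had 63.2 to 96.1 CPM in CCl4 livers and 27.8 to 46.1 CPM in oil livers, with no overlap and a log2 fold change of 1.24 (SE 0.15, edgeR adjusted p = 2.76e-05). Creld1, the relative of Creld2, had 28.7 to 41.0 CPM in CCl4 livers and 42.9 to 66.7 CPM in oil livers, with no overlap and a log2 fold change of -0.71 (SE 0.13, adjusted p = 0.000859).

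Of 19 ERAD genes, 2 were higher and 3 lower (against 20.6% and 18.4% of all genes), with a median of -0.18. Derl3, a derlin of the ERAD channel, had 16.3 to 35.4 CPM in CCl4 livers and 3.47 to 21.1 CPM in oil livers, overlapping through oil liver 5, with a log2 fold change of 1.85 (SE 0.43, edgeR adjusted p = 0.00367). Derl3 is also a gene of plasma cells, and of the 7 other plasma cell markers tested 3 were higher, Jchain, Mzb1 and Prdm1, and 0 lower. Their log2 fold changes were 1.48, 1.24 and 1.28 in that order. Mean levels in CCl4 livers were low, at 5.12, 0.60 and 0.86 CPM in that order, against 29.2 CPM for Derl3. The others, Pou2af1 (0.67), Irf4 (0.32), Txndc5 (0.04) and Sdc1 (-0.20), were not called. The summed level of the whole marker list, 422 to 457 CPM in CCl4 livers and 392 to 484 CPM in oil livers, came to at least 89.7% from Sdc1 and Txndc5 and so does not follow the rarer markers. The part of plasma cells was not tested. Nploc4, a cofactor of the p97 ATPase, had a log2 fold change of -0.66 (SE 0.16, adjusted p = 0.00456).

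Of 25 genes of ER translocation and N-glycosylation, 12 were higher and 2 lower (against 20.6% and 18.4% of all genes). Their median was 0.45. Ostc, a subunit of oligosaccharyltransferase, had 94.1 to 183 CPM in CCl4 livers and 49.4 to 125 CPM in oil livers, overlapping through oil liver 5, with a log2 fold change of 0.85 (SE 0.21, edgeR adjusted p = 0.00642). Sec62, a translocon partner, had 68.1 to 102 CPM in CCl4 livers and 124 to 146 CPM in oil livers, with no overlap and a log2 fold change of -0.57 (SE 0.11, adjusted p = 0.00143).

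Of 19 genes of COPII vesicles and their cargo receptors, 2 were higher and 1 lower (against 20.6% and 18.4% of all genes). Their median was -0.05. Kdelr3, a receptor that returns escaped ER proteins, had 4.15 to 11.9 CPM in CCl4 livers and 0.421 to 1.02 CPM in oil livers, with no overlap and a log2 fold change of 3.38 (SE 0.29, edgeR adjusted p = 1.40e-06). Sec24a, a coat subunit that picks cargo, was the gene called lower, at -0.58 (SE 0.15, adjusted p = 0.00898).

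Of 12 genes of the PERK, ATF4 and CHOP arm, 5 were higher and 1 lower (against 20.6% and 18.4% of all genes). Their median was 0.35. Nupr1, a stress-induced nuclear protein, had 23.9 to 42.3 CPM in CCl4 livers and 0.459 to 2.18 CPM in oil livers, with no overlap and a log2 fold change of 4.89 (SE 0.33, edgeR adjusted p = 2.04e-07). Ppp1r15b, which directs a phosphatase to eIF2 alpha, was the gene called lower, at -0.64 (SE 0.12, adjusted p = 0.000588). Differences between these lists were not tested.

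**Figure D4:**
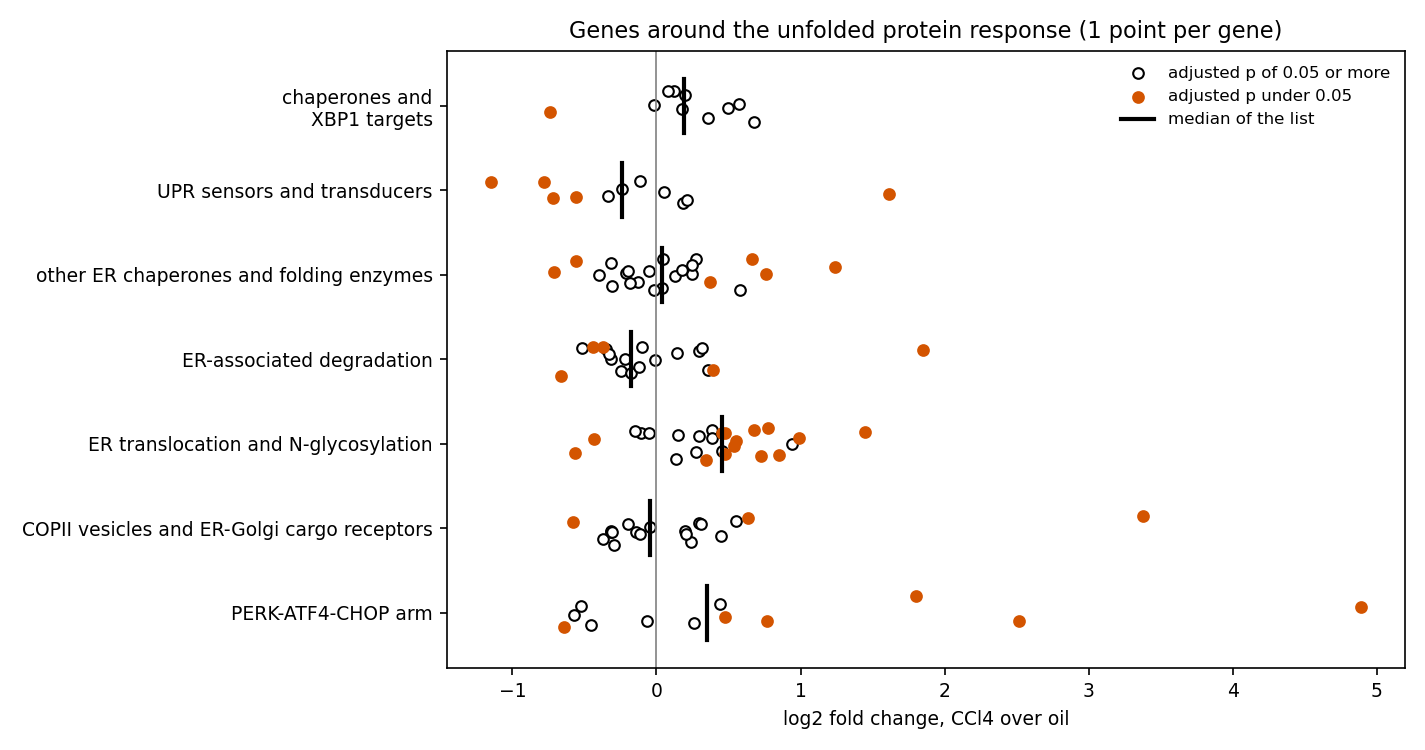
Log2 fold change of CCl4 over oil for each gene of the 10 and of the 6 related lists, with 1 point per gene, filled where the edgeR adjusted p was under 0.05, and the list median as a line. The medians run from -0.24 for sensors and transducers to 0.45 for translocation and N-glycosylation.

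Over the whole table, 20 tested genes held an ERSE in their window, of which 6 were higher and 2 lower in CCl4 livers, with a median log2 fold change of 0.22. The 4 genes described here that hold an ERSE were among the 12 not called. Of the other 16, 6 belong to the lists above: Pdia6 (0.66, edgeR adjusted p = 0.000695) and Derl3 were higher, Ero1b was lower (-0.56, adjusted p = 0.0212), and Canx (-0.13), Dnajc3 (0.05) and Syvn1 (-0.51, adjusted p = 0.171) were not called. Of 8 tested genes with an ERSE-II, 1 was higher and 4 were lower, Herpud1 among the 4, with a median of -0.22. Over all genes tested, 20.6% were higher and 18.4% lower, with a median of 0.01. These counts of genes with an element are small, and no test was made of them.

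The tissue label was checked against marker transcripts. Hepatocyte markers, Alb among them, summed to 131618 to 184214 CPM in CCl4 livers and 121316 to 173435 CPM in oil livers. Alb alone averaged 77063 CPM in CCl4 livers and 78023 CPM in oil livers, so the sum mostly follows the largest markers. Of the 9 markers, 1 was higher (Hpx) and 3 were lower (Apoa2, Serpina1c and Cps1), and none was at 0 throughout. Stellate cell and fibroblast markers summed to 831 to 1132 CPM in CCl4 livers and 231 to 377 CPM in oil livers, with 10 of 10 higher. Macrophage markers summed to 550 to 890 CPM in CCl4 livers and 254 to 343 CPM in oil livers, with 8 of 10 higher. The shares over all genes were 20.6% higher and 18.4% lower. Collagen-secreting and immune cells also use ER chaperones, and the part of these cells in the values above was not tested.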

How the data were processed

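Whole liver RNA was extracted on RNeasy columns and made into libraries with a TruSeq Stranded Total RNA kit, per the labels' protocols. The authors deposited raw counts per gene, as whole numbers under Entrez gene IDs; the submitters' processing notes name the GRCm38 build. The sources used here do not give aligner, counter, annotation or use of strand. RefSeq symbols were found for 31049 of 36528 IDs. Replicate numbers only name livers. In edgeR 4.0.16 (R 4.3.3), low counts were removed by filterByExpr, libraries were normalised by TMM, and groups were compared by robust quasi-likelihood (Benjamini-Hochberg threshold 0.05). CPM are per 1000000 counts, and for log2 CPM 2 prior counts were added. The standard error is the log2 fold change divided by the root of F. DESeq2 1.42.0 and limma 3.58.1 were alternatives. Replicates differed beyond sampling noise, with 53.4 as the lowest chi-square per gene. Scripts were tested on simulated data. The genes and lists were chosen with earlier results of these data known. Named by rule beside the 10 were, per list, the called gene with the smallest p in each direction, and the 5 genes nearest to Hspa5. Ern1, Atf6 and Eif2ak3 were added for their role after their values were seen. Listed genes with an ERSE and cell type markers were also named. Transcript and coding lengths came from GENCODE M21.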

Additional observations from a re-analysis of the deposited data

Results flagged for a closer look

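In 6 of 50 groups of 6 livers checked, 1 liver stood apart in CPM by Dixon's criterion. This is the gap to the next liver over the group's range, at its 95% critical value. Chance alone gives it in about 1 in 20 groups of normally distributed values. CPM need not be so distributed, and high values stand out more in CPM than in log2 CPM. Over all tested genes this occurred in 4.6% of CCl4 groups and 13.5% of oil groups, and in 8.69% with oil liver 5 as the high value. Oil liver 5 was the high value for Xbp1 (559 CPM), Dnajb9 (217 CPM), Sdf2l1 (163 CPM), Dnajc10 (46.1 CPM) and Ostc (125 CPM). In log2 CPM its gap was a smaller part of the range for Xbp1, Dnajb9 and Sdf2l1. Oil liver 5 stood there at 9.13 for Xbp1 (other oil livers 7.78 to 8.36), 7.76 for Dnajb9 (5.13 to 6.23) and 7.35 for Sdf2l1 (5.63 to 6.38). Oil liver 2 was the high value for Creb3l3 (369 CPM), in a group whose other livers lay between 336 and 346 CPM. No CCl4 liver was marked for these genes.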

How the results depend on the processing

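Of 10 genes, the number higher was 0 with TMM (20.6% of all genes), 1 with the length slope as a covariate (21.6%), 2 with upper-quartile scaling (26%), 3 with limma-voom (27.4%) and 3 without CCl4 liver 6 and oil liver 5 (22.7%), the short-rich libraries, a setting chosen after seeing the data; leaving out each liver gave 0 to 4 higher and 1 lower. Upper-quartile scaling moved the median of all genes to 0.13 and the share of calls that were higher to 67.3%, against 52.8% with TMM. The log2 fold change of Xbp1 turned positive with a filter of 50 counts in 6 libraries (0.012), limma-voom (0.26), upper-quartile scaling (0.11) and without the short-rich libraries (0.17), and ran from -0.12 to 0.22 when each liver was left out. That of Dnajb9 was -0.29 with the length covariate and -0.077 to 0.723 when each liver was left out, and that of Eif2ak3 0.034 with the covariate, 0.012 with upper-quartile scaling and 0.057 without the short-rich libraries. The cause was not tested.

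Counts in the lists moved as follows, with the share of all genes higher and lower in brackets. With limma-voom (27.4%, 27.1%), COPII genes had 8 higher and 2 lower, ERAD 5 higher and 5 lower, other chaperones 7 higher, and the PERK arm 2 lower. With upper-quartile scaling (26%, 12.6%), COPII had 6 higher, ERAD 4 higher and 1 lower, other chaperones 1 lower, translocation 1 lower and sensors 2 lower. Without the short-rich libraries (22.7%, 19.7%), COPII had 7 higher, ERAD 5 higher, other chaperones 1 lower and the PERK arm 2 lower. With the length covariate (21.6%, 21.9%), ERAD had 1 higher, other chaperones 2 higher, sensors 2 higher, COPII 2 lower and translocation 1 lower. With the strict filter (20.4%, 18.5%), COPII had 4 higher and translocation 1 lower; with no filter (13.8%, 11%), ERAD had 1 higher and translocation 1 lower. DESeq2 size factors (19.9%, 20.1%), like TMM without mitochondrial genes (20.4%, 18.6%), gave ERAD 1 higher and the PERK arm 2 lower. The DESeq2 test (22.1%, 23.1%) gave 2 lower in COPII, 5 in ERAD and 2 in the PERK arm. Leaving out each liver gave 1 to 7 higher and 1 to 3 lower in COPII, 1 to 5 higher and 3 to 6 lower in ERAD, 8 to 16 higher and 1 to 2 lower in translocation, 2 to 6 higher and 1 to 4 lower in other chaperones, 4 to 5 higher and 1 to 2 lower in the PERK arm, and 1 higher and 2 to 4 lower among sensors; the largest numbers higher in COPII, ERAD, translocation and other chaperones came without oil liver 5. The 12 genes named from the lists by rule kept direction and call in all 22 settings. They were picked by the smallest p in these same data, which favours that outcome, so it does not speak for their lists.

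No paired analysis was possible because replicate numbers were given in accession order and only name livers.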
